A study of Mus musculus with 4 samples.

Results

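White and brown adipocyte genes were followed in the left ventricle of the mouse heart after myocardial infarction. They are the 10 genes Adipoq, Cfd, Retn, Lep, Plin1, Cidec, Fabp4, Elovl3, Ucp1 and Pparg, taken from 20046 genes with a RefSeq symbol on the array. They were measured by 13 of the 41174 probes. The genes were chosen from their signals on these same arrays, namely the log2 processed signal and its detection flag on each array, and their probes were found by the gene name in the array files. The comparison of genotypes for these genes is therefore given as a description, with no test.

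RNA came from left ventricles of male-labelled mice aged 8 to 10 weeks, 7 days after the left anterior descending coronary artery was tied off, and was hybridised to 4 Agilent one-colour arrays. Wild-type (WT) mice gave arrays WT 2 and WT 3, and knockout mice lacking KDM5B, a histone demethylase, gave arrays KO 2 and KO 3. The knockout is constitutive, so it affects every cell type of the body. It was made in C57BL/6 mice by a CRISPR/Cas9 deletion around the JmjC domain of Kdm5b that also shifts the reading frame. All 4 arrays came from infarcted hearts, and uninjured hearts were not analysed here. Whether each array stands for a single animal is not stated. The arrays of a genotype had readings of opposite sexes, given below, so they were not repeats of 1 animal. The spread between arrays may still be technical in part.

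White adipocytes store triglyceride in 1 large droplet coated by perilipin and CIDE proteins and release hormones such as adiponectin and leptin into the blood. Brown adipocytes hold many small droplets and burn fatty acids in mitochondria uncoupled by UCP1. The heart has its own fat on the outer surface, around the coronary vessels and along the groove between atria and ventricles, while heart muscle cells and capillary cells share many genes of fatty acid uptake and oxidation with adipocytes. Genes that mark adipocytes themselves therefore have to be kept apart from genes of lipid use.

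The probes on which the description rests are 60 bases long, and those of Adipoq, Retn, Fabp4 and Ucp1 are shown in the sense of the transcript with their mm9 coordinates as the files give them. Adipoq at chr16:23157576-23157635 (plus strand) is shown because its signal was seen on 1 array alone, and Ucp1 at chr8:85821788-85821847 (plus strand) because it was seen on none. Retn has a pair of probes, at chr8:3656145-3656966 and chr8:3656107-3656928 (plus strand), that share 22 bases, in capitals. Both Retn probes span 822 bases of the genome, so they cross an intron and read spliced RNA. Of the 3 Fabp4 probes, the brightest, at chr3:10204533-10205262 (minus strand), spans 730 bases and also crosses an intron, and the dimmest lies at chr3:10208442-10208501 (minus strand). The place of the other probes within exons was not determined here.
Adipoq: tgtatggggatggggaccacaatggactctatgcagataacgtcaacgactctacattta
Retn, brighter probe: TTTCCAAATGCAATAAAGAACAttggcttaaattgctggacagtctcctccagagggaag
Retn, dimmer probe: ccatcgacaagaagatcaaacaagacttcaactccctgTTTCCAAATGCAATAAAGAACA
Fabp4, brightest probe: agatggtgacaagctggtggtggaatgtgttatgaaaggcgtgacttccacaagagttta
Fabp4, dimmest probe: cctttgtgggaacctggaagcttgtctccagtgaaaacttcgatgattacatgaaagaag
Ucp1: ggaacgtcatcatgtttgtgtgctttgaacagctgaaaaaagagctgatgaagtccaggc

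Each signal is a log2 value after subtraction of the array's own 75th percentile, so that 0 is a bright probe and negative values are dimmer. A probe counted as detected where the scanner software called it well above background. Between 68.15% and 72.04% of probes were detected per array, 0 spots were saturated, and the 75th percentile ran from a signal of 608 on KO 2 to 976 on WT 3. Kdm5b itself read -0.87 on WT 2 and -1.81 on WT 3, against -2.40 on KO 2 and -2.26 on KO 3, lower on both KO arrays. The labels give all mice as male, but Xist, the RNA of the inactive X chromosome, read 4.36 on WT 2 and -8.01 on WT 3, against 3.997 on KO 2 and -7.78 on KO 3. Ddx3y, on the Y chromosome, gave -7.65, 1.95, -7.62 and 1.65 on the same arrays in turn. The arrays thus divide by their number. WT 2 and KO 2 had the reading of female mice, against their label, and WT 3 and KO 3 that of male mice. Array number and this reading of sex cannot be told apart. KO minus WT is also given within array number 2 and within array number 3, each with 1 array per genotype and no replicate. All 4 arrays shared 1 slide, with the WT arrays at the first positions, so position and genotype cannot be told apart.

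The adipocyte genes fell into 4 kinds. For the first kind, with Cfd, Adipoq, Cidec and the dim Plin1, KO 2 read well above the other 3 arrays, though Plin1 was only just detected there at -4.49. Elovl3 and, more weakly, Retn were detected on KO 2 and KO 3 but on no WT array. Lep and Ucp1, the leptin and uncoupling protein genes, were detected on none of the 4 arrays. Fabp4 and Pparg were bright on every array.

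**Figure D1:**
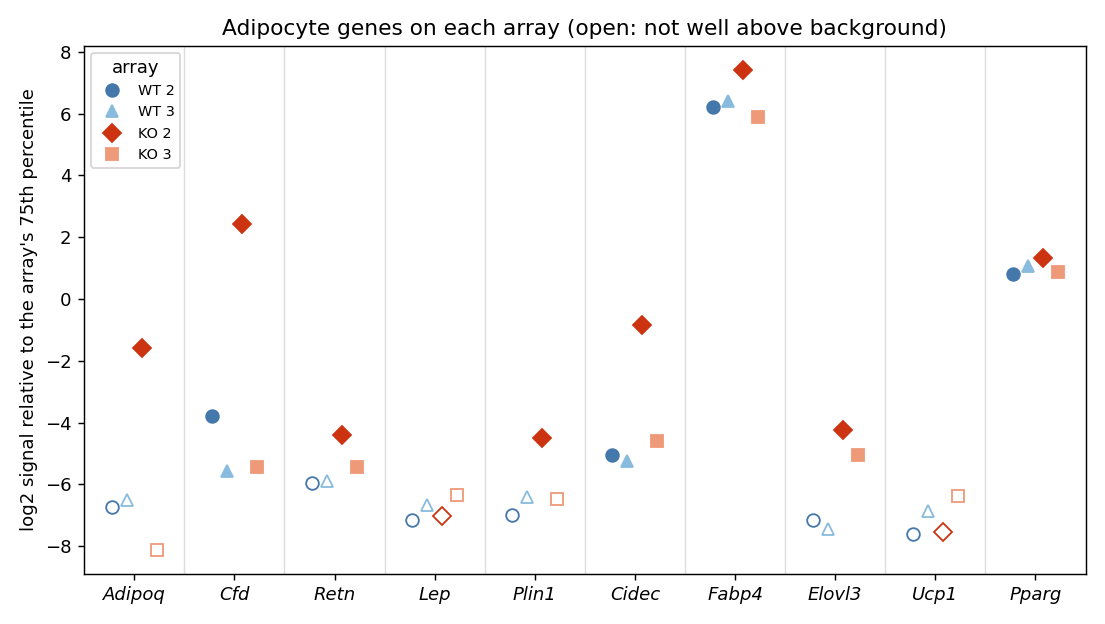
Signal of each of the 10 genes on each of the 4 arrays, as log2 relative to the array's 75th percentile, with filled symbols where the probe was well above background and open symbols where it was not. Cfd, Adipoq and Cidec on KO 2 stand apart from the other 3 arrays, whereas Lep and Ucp1 have open symbols throughout and Fabp4 and Pparg filled ones.

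Of the secreted proteins, Cfd was furthest apart. It encodes complement factor D, or adipsin, a serine protease that mouse adipocytes release in large amounts. Its probe at chr10:79355302-79355361 read -3.78 on WT 2 and -5.55 on WT 3, against 2.43 on KO 2 and -5.44 on KO 3. KO 2 lay far above the rest, while KO 3 lay between the WT arrays, so the genotypes overlapped. The signal on KO 2 was 74.1-fold that on WT 2, and that on KO 3 was 1.08-fold that on WT 3. WT averaged -4.67 ± 1.25 (SD, n = 2) and KO averaged -1.51 ± 5.57 (SD, n = 2), a difference of 3.16 on the log2 scale that turned to -0.78 without KO 2. In RNA of whole tissue, fewer cells of a type and less RNA per cell cannot be told apart.

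Adipoq encodes adiponectin, a hormone made almost only by adipocytes. It read -6.71 on WT 2 and -6.49 on WT 3, against -1.59 on KO 2 and -8.11 on KO 3. It was detected on KO 2 alone, and KO 3 had the lowest reading. Against the lowest detected signal on WT 2, KO 2 was at least 14.7-fold higher. Such a bound sets the dim array at the lowest signal of any probe well above background there, or at the reading of the probe itself where that is higher. Over both arrays of each genotype, of which 1 KO array measured the gene, the same calculation gave 1.78-fold. It averages KO 2 with the undetected reading of KO 3, so it is no lower limit for the genotype.

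Retn encodes resistin, a hormone that mouse white adipocytes secrete. Its brighter probe read -5.95 on WT 2 and -5.88 on WT 3, against -4.39 on KO 2 and -5.44 on KO 3. KO 2 and KO 3 exceeded both WT arrays and were the only ones detected, with KO 2 at least 2.11-fold above WT 2 and KO 3 at least 1.36-fold above WT 3. The dimmer probe, which shares 22 bases with it, read -7.55 on WT 2 and -7.00 on WT 3, against -4.99 on KO 2 and -7.94 on KO 3. It was detected on KO 2 alone, so the signal of Retn on KO 3 was carried by 1 of its 2 probes.

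Lep encodes leptin, the hormone by which fat stores signal to the brain. Its probe at chr6:29023234-29023293 read -7.16 on WT 2 and -6.68 on WT 3, against -7.02 on KO 2 and -6.34 on KO 3. None of these was well above background, and KO 2 was the second lowest. Lep was printed on 10 spots per array, of which 8 to 10 were used, and the SD over its spots ran from 0.47 to 0.67, and the spots of the 4 arrays overlapped. Leptin mRNA was thus not detectable on the array where adiponectin and adipsin were high, which sets no limit below the detection level of this probe.

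Among the proteins of the lipid droplet, Cidec encodes the CIDE protein that lets droplets fuse into 1 large droplet. Its probe at chr6:113374693-113374752 read -5.04 on WT 2 and -5.25 on WT 3, against -0.83 on KO 2 and -4.58 on KO 3. It was detected on all 4 arrays, with KO 2 and KO 3 both above WT 2 and WT 3. The difference between numbers was nonetheless wide, with KO 2 18.5-fold above WT 2 and KO 3 1.59-fold above WT 3. WT averaged -5.14 ± 0.14 (SD, n = 2) and KO averaged -2.71 ± 2.65 (SD, n = 2), and the difference of 2.44 was 0.56 without KO 2.

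Plin1 encodes perilipin 1, the coat protein that guards the droplet of adipocytes from lipases. Its probe at chr7:86866112-86866171 read -7.00 on WT 2 and -6.41 on WT 3, against -4.49 on KO 2 and -6.47 on KO 3. Only KO 2 was well above background, at least 1.97-fold over WT 2. Over both arrays of each genotype the calculation gave 1.15-fold, again with the undetected reading of KO 3 in it and so no lower limit.

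Fabp4 encodes the fatty acid binding protein first described in adipocytes, which capillary endothelial cells and macrophages make as well. Its brightest probe read 6.20 on WT 2 and 6.40 on WT 3, against 7.41 on KO 2 and 5.89 on KO 3. KO 2 was highest and KO 3 lowest, and the WT arrays lay between them. The signal on KO 2 was 2.32-fold that on WT 2, and that on KO 3 was 0.70-fold that on WT 3. All 3 probes gave this order of KO arrays around WT, with KO minus WT of 1.21, 1.22 and 1.35 at number 2 and of -0.52, -0.42 and -0.56 at number 3. The mean difference of 0.35 was the product of these opposite values and was -0.01 under quantile normalization and in the authors' values.

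Of the genes tied to brown fat, Elovl3 encodes an elongase of very long chain fatty acids that is raised in cold-exposed brown fat and is also made in skin glands and liver. Its probe at chr19:46209762-46209821 read -7.16 on WT 2 and -7.45 on WT 3, against -4.25 on KO 2 and -5.05 on KO 3. Both KO arrays were detected and neither WT array was. The bound was at least 2.32-fold at number 2 and at least 1.81-fold at number 3, and at least 2.05-fold over both arrays of each genotype. Of the 10 genes it was the only one with a reading more than 1 log2 unit higher in KO at both numbers, 2.91 at number 2 and 2.41 at number 3. These readings include WT signals below detection, and the mean difference of 2.66 was 1.003 with normexp background correction.

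Ucp1, which encodes the uncoupling protein that defines brown and beige fat, read -7.60 on WT 2 and -6.87 on WT 3, against -7.54 on KO 2 and -6.38 on KO 3. No array detected it, and KO 2 lay between the WT arrays. Other genes used to mark brown fat were Cidea, Dio2, Prdm16, Zic1 and Lhx8. Cidea, a CIDE gene that the mouse heart also uses, read 3.43 on WT 2 and 2.93 on WT 3, against 4.68 on KO 2 and 2.17 on KO 3. Of these 5 with Ucp1 and Elovl3, 7 brown markers in all, 3 were detected on WT 2 and 4 on WT 3, with 4 on KO 2 and 6 on KO 3. Their summed signal, in units of the 75th percentile, was 13.8 on WT 2 and 10.4 on WT 3. It was 29.3 on KO 2 and 6.04 on KO 3. Most of each sum came from Cidea, the brightest of the 7 on every array, so the sum mostly reads this gene. Ucp1, Zic1 and Lhx8 were not detected on KO 2. Of 9 white markers, which add Lipe, Plin4 and Adrb3 to Adipoq, Lep, Retn, Cfd, Plin1 and Cidec, 4 were detected on WT 2 and 4 on WT 3, with 7 on KO 2 and 5 on KO 3, with Lep and Adrb3 on none. The developmental regulator Zic1 read -7.36 on KO 2, not detected, and -3.18 on KO 3.

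Pparg encodes the nuclear receptor that drives adipocyte differentiation and is also used by endothelial cells and macrophages. Its probe at chr6:115440213-115440272 read 0.80 on WT 2 and 1.07 on WT 3, against 1.33 on KO 2 and 0.87 on KO 3. The 4 arrays lay within 0.53 of each other, with KO 3 between the WT arrays. Each value is the mean of 10 spots whose SD, a technical spread within an array, was 0.03 to 0.04, and the spots of WT 2 and KO 3 overlapped. The difference at number 2 was 0.53 and at number 3 it was -0.19, far under the size seen for Cfd or Adipoq.

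**Figure D2:**
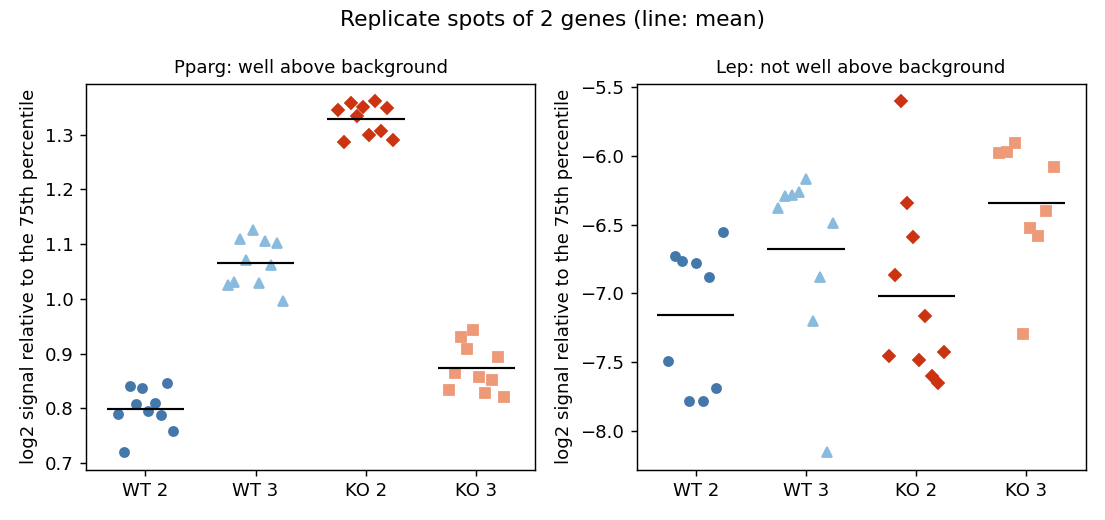
Log2 signal of each replicate spot of Pparg (left) and Lep (right) on the 4 arrays, relative to the array's 75th percentile, with a line at the mean of the spots. Pparg spots form 1 tight group per array around 0.80, 1.07, 1.33 and 0.87, while Lep spots, none of them from an array where the probe was well above background, overlap between arrays.

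Over the 10 genes, KO was higher than WT by more than 2-fold for 6 and lower for 0, where 2.33% of 20046 genes were more than 2-fold higher and 2.82% more than 2-fold lower. Only Cfd and Cidec among the 6 were detected on all 4 arrays. With normexp 4 genes were more than 2-fold apart, and without WT 2 also 4. Without KO 2, 2 genes differed by more than 2-fold, Elovl3 upward and Adipoq downward, the latter below detection. At number 2, 7 genes were more than 2-fold higher in KO, against 8.21% of all genes, and 0 were lower, against 9.01%. At number 3, Elovl3 alone was more than 2-fold higher, against 3.96% of all genes, and Adipoq alone, with both readings undetected, more than 2-fold lower, against 3.23%. The median KO minus WT of the 10 genes was 1.12 on the log2 scale, with 2.04 at number 2 and 0.22 at number 3, where the medians of all genes were 0.07, 0.04 and 0.07. With normexp the median of all tested probes rose from 0.02 to 0.13. Without KO 2 the median was 0.36.

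**Figure D3:**
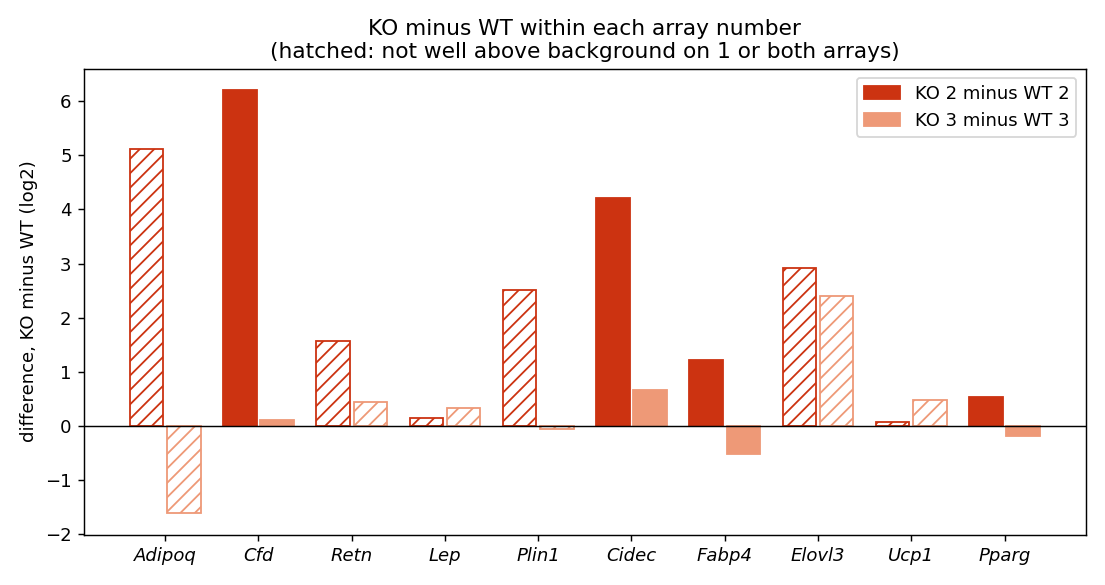
KO minus WT in log2 units for the 10 genes within array number 2 and within array number 3, with 1 array per genotype in each and hatching where the probe was not well above background on 1 or both arrays. The bars of Cfd, Adipoq and Cidec reach 6.21, 5.12 and 4.21 at number 2 and 0.11, -1.62 and 0.67 at number 3, and Elovl3 has bars of 2.91 and 2.41.

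Detection divided the arrays in the same way. Of the 10 genes, 4 were well above background on WT 2 and 4 on WT 3, with 8 on KO 2 and 6 on KO 3. Adipoq and Plin1 were detected on KO 2 alone, as were 1.27% of all genes. Retn and Elovl3 were detected on the 2 KO arrays but on no WT array, as were 0.17% of all genes. KO 2 and KO 3 were above WT 2 and WT 3 for 3 genes, Cidec, Retn and Elovl3, where 12.6% of all genes had that order. KO 2 had the highest reading for 8 of the 10, as it had for 41.8% of all tested genes. As the genes were chosen from these signals, nothing is read from these shares.

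The fit over all probes gives the background of the comparison and no result for the 10 genes, of which 6 passed its filter on dim probes, Elovl3 and Retn through the KO arrays alone. By limma 0 of 28305 tested probes, or 0%, combined an adjusted p below 0.05 with a fold change above 2. At an unadjusted p under 0.05 there were 410 probes, and the methods' t-test called 88 unadjusted and 0 adjusted. The smallest two-sided p of an exact permutation test is 0.333 for 2 arrays per genotype.

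Other genes of white adipocytes were counted from a list of 38, of which 37 were on the array and 31 were tested. None was called by limma, and 1 had an unadjusted p under 0.05, the retinol carrier gene Rbp4, lower in KO by -1.14. The median KO minus WT of the 31 genes was 0.20, against 0.04 for all 15062 tested genes. It was 0.72 at number 2, where 13 were more than 2-fold higher in KO and 2 lower. At number 3 it was -0.12, with 0 more than 2-fold higher and 2 lower. Of all tested genes, 6.95% were more than 2-fold higher and 9.39% lower at number 2. At number 3 these shares were 2.58% and 1.78%.

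Car3, carbonic anhydrase 3 of adipocytes, liver and slow muscle, had the highest difference of the list, 1.88. It read -3.47 on WT 2 and -5.20 on WT 3, against 0.56 on KO 2 and -5.46 on KO 3, the same order as Cfd except that KO 3 was lowest. Cyp2e1, a cytochrome P450 of liver and fat, was not tested because it was detected on KO 2 alone. It read -3.45 there and was at least 4.04-fold above WT 2. Also untested, Hcar2 was detected on WT 2 alone, at -4.33, and Orm1 on KO 3 alone, at -5.67. Adrb3, Hcar1 and Adig, 3 further genes of mature adipocytes, were detected on no array. The receptor gene Ffar4 had the lowest difference, -1.26, with -4.77 on WT 2 and -5.23 on WT 3, against -7.42 on KO 2 and -5.10 on KO 3, where the KO 2 reading was not above background. That difference was -0.10 without KO 2 and 0.25 with normexp.

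Many genes of the white adipocyte list, Car3 included, had the array order of heart muscle genes. Lpl, the lipoprotein lipase gene and the brightest of the list, read 6.44 on WT 2 and 5.35 on WT 3, against 7.81 on KO 2 and 4.65 on KO 3. For 18 of the 31 white adipocyte genes the arrays ran from KO 2 through WT 2 and WT 3 down to KO 3, an order that 19.6% of all tested genes had. The same order held for 11 of 12 cardiomyocyte genes, whose mean log2 signal was 7.02 on WT 2 and 6.02 on WT 3, against 7.89 on KO 2 and 5.31 on KO 3. All 12 cardiomyocyte genes were detected on every array, and their summed signal relative to the 75th percentile ran from 878 on KO 3 to 3945 on KO 2. The part of heart muscle RNA in the adipocyte readings was not tested.

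The list of brown adipocyte genes, which leaves out Ucp1 and Elovl3, was counted for the same order. Of its 23 genes, all on the array, 17 were tested and 13 of these ran from KO 2 through WT 2 and WT 3 to KO 3. By limma 0 were called, with 0 at an unadjusted p under 0.05. The median was 0.11 over both numbers, 1.02 at number 2 and -0.62 at number 3. Plin5, a droplet coat of oxidative tissue including the heart, had the highest difference, 0.53, and the cell adhesion gene Mpzl2 the lowest, -0.97. Cox7a1, a muscle and brown fat subunit of cytochrome oxidase, was brightest and read 7.42 on WT 2 and 5.71 on WT 3, against 8.90 on KO 2 and 4.97 on KO 3, the order of the cardiomyocyte genes. Its mean difference of 0.37 was -0.01 with quantile normalization.

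**Figure D4:**
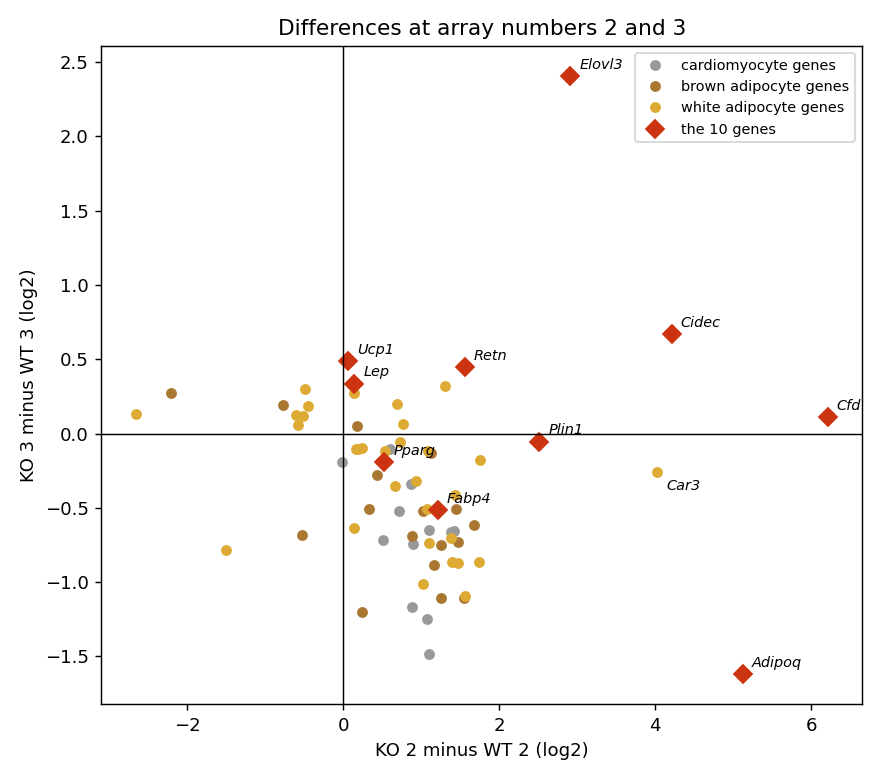
KO minus WT in log2 units at array number 2 (horizontal) and at array number 3 (vertical) for the 10 genes, the tested genes of the white and brown adipocyte lists and the cardiomyocyte list. Most list genes sit near the cardiomyocyte genes, above 0 at number 2 and below 0 at number 3, while Cfd, Adipoq, Cidec and Car3 lie far to the right and Elovl3 alone lies high on both axes.

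The transcription factors of adipocyte differentiation mostly had small mean differences between genotypes, as Pparg did. Such a mean can hide opposite differences, as for Klf15 with 1.28 at number 2 and -1.62 at number 3. Of 11 tested factors 5 were higher and 6 lower in KO, with 0 called by limma, 0 at an unadjusted p under 0.05 and a median of -0.09. Quantile normalization put 1 higher and 10 lower, with a median of -0.22. Nr1h3, the liver X receptor alpha gene, had the highest difference at 0.11 and Cebpd, the brightest, had -0.09. Cebpa, which works with PPARG in fat cells, had the lowest at -0.62 and read 0.16 on WT 2 and 1.04 on WT 3, against -1.35 on KO 2 and 1.30 on KO 3. It was dimmest on the array on which Adipoq and Cfd were brightest.

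Families to which Plin1, Cidec and Fabp4 belong, and the hormone receptors, were read next. All 6 remaining perilipin and CIDE genes had a higher mean in KO, also under the other scalings, but 1 of 6 was higher at number 3, where their median was -0.64 against 1.14 at number 2, and Plin4 and Plin5 were -0.98 and -1.57 without KO 2. The 6 genes had 0 called by limma, 0 at an unadjusted p under 0.05 and a median of 0.27, and 5 of 6 had the cardiomyocyte order. Plin4 had the lowest difference, 0.18, and Plin2, the brightest by mean, 0.27. Of 7 other fatty acid binding protein genes 4 were tested, and Fabp1, Fabp6 and Fabp9 were detected on no array. Fabp3, the heart form, read 8.06 on WT 2 and 6.96 on WT 3, against 8.94 on KO 2 and 6.62 on KO 3, again in that order. Its mean difference of 0.27 was -0.16 with quantile normalization, and Fabp5 had the highest at 0.63 and Fabp2 the lowest at -0.21. The 6 receptor genes for the hormones of these genes had a median difference of 0.07. They ran from 0.41 for the leptin receptor gene Lepr to -0.09 for Tlr4. Opposite values also cancelled here, as for Cap1 with -0.72 at number 2 and 0.71 at number 3. Adipor2, an adiponectin receptor gene and the brightest, had 0.12, which was -0.11 with quantile normalization.

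Other cell type lists also stood apart on KO 2, some highest there and some lowest. Their part in the result was not tested. Genes listed for preadipocytes and the stroma of fat were lowest on KO 2 for 7 of 10. Their mean was 0.91 there, 1.44 on WT 2, 1.46 on WT 3 and 1.25 on KO 3, and all 10 were detected on every array. Whether their signal came from fat or from other tissue of the ventricle was not tested. Within this list Dlk1, the preadipocyte factor, differed by 0.31 and Sfrp2, the brightest, by -1.66 (-0.54 without KO 2 and -2.77 without KO 3). Capillary endothelial genes, from a cell type that uses Fabp4, were highest on KO 2 for 9 of 10, with a mean of 3.46 there against 2.63 on WT 2, 2.49 on WT 3 and 2.12 on KO 3. Gpihbp1, the capillary anchor of lipoprotein lipase, differed by 0.60, Meox2 by -0.03 and the water channel gene Aqp1 by 0.10, the last turning to -0.09 with quantile normalization. Over all tested genes KO 2 was highest for 41.8% and lowest for 39.9%.

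Macrophage genes were lowest on KO 2 for 9 of 10, with a mean of 2.20 there, 3.12 on WT 2, 3.59 on WT 3 and 3.93 on KO 3. Cd163, a marker of resident macrophages, differed by 1.05 (0.36 without KO 2 and 1.73 without KO 3), Ctss by -0.70 and Lyz2 by -0.26. Mesothelial genes, which mark the outer lining of heart and lung, were lowest on KO 2 for 8 of 9 tested, with a mean of -2.02 there, 0.13 on WT 2, 0.68 on WT 3 and 1.30 on KO 3. Msln differed by -0.78, Krt19 by -1.38 and Wt1 by 0.78 (1.19 without KO 2 and 0.37 without KO 3), and Calb2 was detected on no array. The array with the strongest adipocyte signal thus had the weakest mesothelial signal.

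Thymocyte genes were included because the thymus and its fat lie next to the heart. Rag1, Rag2 and Ptcra, genes of immature thymocytes, were detected on no array. Dntt of the same list was detected on every array, reading -3.02 on WT 2 and -3.11 on WT 3. It read -3.16 on KO 2 and -2.86 on KO 3. Themis was detected on KO 3 alone. The mean of the 6 tested genes was -4.56 on KO 2, -2.49 on WT 2, -2.48 on WT 3 and -2.62 on KO 3. Cd8a, undetected on KO 2, differed by -2.35 and Cd8b1 by -1.90, which were -0.64 and -0.32 without KO 2 and -4.05 and -3.48 without KO 3. Cd8a was -0.99 with normexp, and Cd4 differed by 0.16. Skeletal muscle genes were highest on KO 2 for 7 of 10, with a mean of 0.31 there, -0.48 on WT 2, -1.12 on WT 3 and -1.38 on KO 3. Myh2, undetected on both WT arrays, differed by 1.27 (0.64 with normexp), Pvalb, undetected on KO 3, by -1.10 (0.20 with normexp and -0.27 without KO 3) and Myh4 by -0.17. In the cardiomyocyte list Tnnc1 differed by 0.38, Myh6 by -0.19 and Mybpc3, the brightest, by -0.10.

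**Figure D5:**
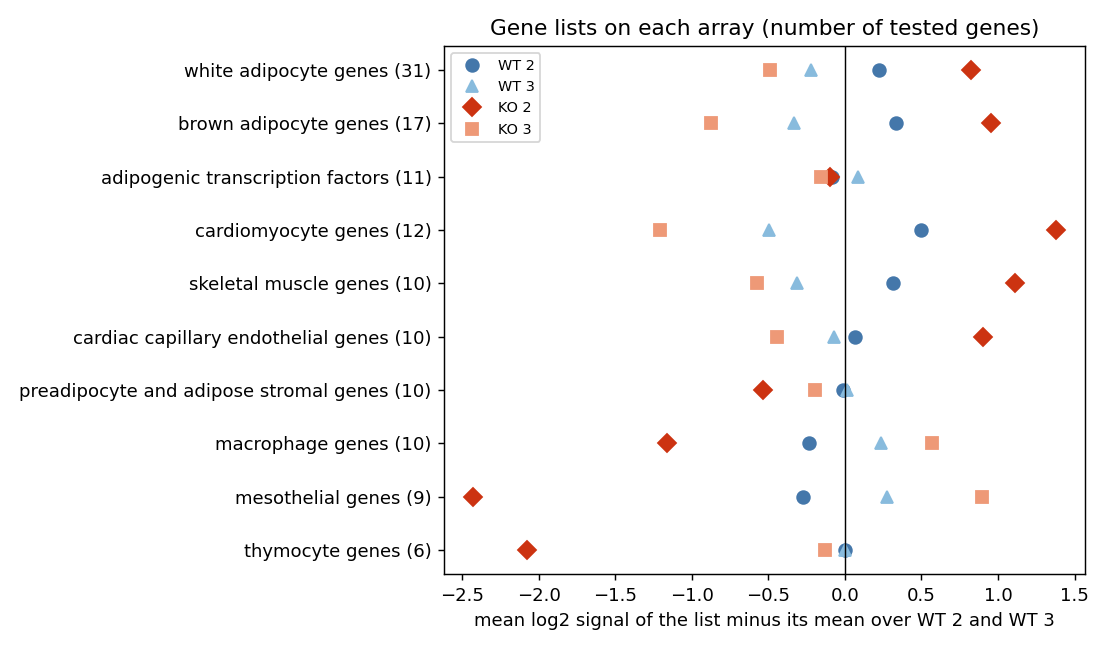
Mean log2 signal of each gene list on each array minus the mean of WT 2 and WT 3, with the number of tested genes in parentheses. KO 2 is the highest array for white and brown adipocyte, cardiomyocyte, skeletal muscle and capillary endothelial genes and the lowest for stromal, macrophage, mesothelial and thymocyte genes.

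The genes with the pattern most like Adipoq were sought among 15111 genes detected on KO 2, by the root mean square distance of the 4 values after each gene was centred on its mean. The nearest 10 outside the chosen genes were Lrrd1, Smok4a, Myl4, Esyt3, AI593442, Olfr112, Ak7, Fgf12, Cntn5 and Phf14, at distances of 0.54 to 0.68 log2 units. Among the chosen genes Cidec came nearest at 1.05 and Cfd next at 1.11. None of the 10 is on the adipocyte lists. Adipoq was undetected on 3 arrays, as were 8 of these genes, so the order of the distances rests mostly on readings below detection and has no meaning among them. Of them 8 were detected on KO 2 alone, and Fgf12 on WT 2 and KO 2.

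Myl4, the atrial light chain of myosin, was the only one of the 10 detected on every array. It read -0.63 on WT 2 and -0.55 on WT 3, against 5.46 on KO 2 and -0.65 on KO 3. KO 2 was the one high array, as for Cfd, and 2 further genes of atrial muscle, Sln and Myl7, were therefore looked up after its value was seen. Myl7, the regulatory light chain of atrial myosin, read -0.70 on WT 2 and -0.35 on WT 3, against 6.39 on KO 2 and 0.23 on KO 3. Sln, the gene of the calcium pump inhibitor sarcolipin, read -7.23 on WT 2 and -4.95 on WT 3, against 5.95 on KO 2 and -2.46 on KO 3. The summed signal of these 3 genes was 1.27 on WT 2 and 1.50 on WT 3, against 190 on KO 2 and 1.99 on KO 3, in units of the 75th percentile. Atrial and adipocyte genes were thus both highest on KO 2, and the part of atrial tissue in the result was not tested.

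Promoters were read from RefSeq (GRCm38.p6) as the 250 bases before each annotated start, and 8 of the 10 genes had an entry in the table. A core motif of the C/EBP factors of adipocyte differentiation, TTGCNNAA, was searched on both strands and matched in 4 of the 8, Plin1, Cidec, Lep and Pparg. Of 27025 genes 12.2% had a match, and of 32851 promoters 10.8%. The direct repeat AGGTCANAGGTCA, a form of the element bound by PPARG with its partner receptor, was searched on both strands and matched in 0 of the 8, as it did in 0.048% of genes, so these exact letters are rare in such windows. Plin1 had 2 C/EBP matches, 187 and 58 bases before the start, and its window at chr7:79732777-79733026 (minus strand) is shown because the gene was detected on KO 2 alone, with the matches in capitals. A match is a description of the letters and says nothing of binding. Lep also held a match and was detected on no array.
Plin1 promoter: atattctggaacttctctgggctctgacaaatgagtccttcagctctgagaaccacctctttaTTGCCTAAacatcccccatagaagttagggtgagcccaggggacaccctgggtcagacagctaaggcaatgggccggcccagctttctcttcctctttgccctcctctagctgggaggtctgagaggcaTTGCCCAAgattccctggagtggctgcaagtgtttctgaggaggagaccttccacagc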

How the data were processed

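Left ventricular RNA of WT and KO mice was measured on 1-colour Agilent arrays, 2 per genotype. The authors deposited the intensity of each spot from Feature Extraction (10.7.3.1 per the file headers, with mm9 coordinates) and a table of log2 values from GeneSpring, whose normalization is not given in the sources used here and which served as an alternative. Control and outlier spots (92 to 116 per array) were left out, spots of 1 probe were averaged, and log2 processed signals were shifted by the 75th percentile of each array. Probes detected (well above background) on both WT or both KO arrays were tested with limma 3.58.1 in R 4.3.3 (lmFit and eBayes, Benjamini-Hochberg adjustment, adjusted p under 0.05 and fold change over 2), after the script was tested on simulated data. A gene's value is that of its probe with the highest mean. The genes described and the lists were chosen with earlier results of these data known. Genes named besides the 10 are the highest, lowest and brightest tested gene of each list, Kdm5b, Xist and Ddx3y, and the 10 nearest to Adipoq in pattern. Lipe, Adrb3, Cidea, Dio2, Prdm16, Zic1 and Lhx8 are named as white or brown adipocyte markers. Others were named after their values were seen, namely Rbp4, Cyp2e1, Hcar2, Orm1, Klf15, Cap1, Sln, Myl7, Dntt, Themis and genes detected on no array. Pck1 of the white list was not matched.

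The alternatives were normexp background correction (offset 50), quantile normalization, a shift by the median, the authors' values, no filter or a stricter filter on dim probes, the mean over a gene's probes, the array number as a replicate block, each array left out in turn and the t-test of the methods. Deviations from the group means of same-numbered arrays correlated at 0.57, and as the groups share only 2 numbers the block was kept as an alternative. Slide and scan could not serve as blocks, since the arrays shared 1 of each. Precision is limited by the number of arrays.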

Additional observations from a re-analysis of the deposited data

Results flagged for a closer look

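For 4 of the 10 genes KO minus WT took opposite signs at array numbers 2 and 3. The share of all genes with opposite signs was not counted, so nothing is read from the count. Each number had 1 array per genotype, and sex as read from Xist and Ddx3y also differed, so the difference was not tested. Number 2 minus number 3 was 6.74 for Adipoq (5.12 and -1.62), 2.57 for Plin1 (2.51 and -0.05), 1.73 for Fabp4 (1.21 and -0.52) and 0.72 for Pparg (0.53 and -0.19). At number 3 neither array detected Adipoq or Plin1, so their sign there has no meaning, whereas Fabp4 and Pparg were well above background on all 4 arrays.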

How the results depend on the processing

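The count of probes called by limma was 0, and so was that of genes on the 3 adipocyte lists, in each setting run, the replicate block included, while the methods' t-test gave 88 probes without adjustment and 0 with it. The block by array number changed no call, and as a fit it leaves each difference as it is. With 2 arrays per group these zeros say nothing about stability. The count of adipocyte genes more than 2-fold apart was 6, was 4 with normexp, 5 with the mean of all probes and 2 among probes detected on every array, where 4 genes are left by construction, and ran from 2 without KO 2 to 7 without KO 3. Their median difference was 0.69 with normexp and ran from 0.36 to 1.87 with 1 array left out. Under quantile normalization and the authors' values Fabp4 was -0.015 and -0.010, Fabp3 -0.16 and -0.16, Adipor2 -0.11 and -0.11 and Aqp1 -0.093 and -0.093, and Cox7a1 was -0.0070 with quantile normalization. With normexp Ffar4 was 0.25, Fabp2 0.16 and Pvalb 0.20. The causes were not tested. With 4 arrays kept, 377 other values kept their direction and 7 moved. With normexp some of the 377 were far smaller, as for Cd8a at -0.99 and Plin1 at 0.72. The filter on dim probes and the replicate block leave a gene's difference as it is. Many of the 377 were thus fixed in advance, and the count is no measure of stability. With 1 array left out 58 values reversed and 174 did not. A group left with 1 array borrows the spread of the other group. The ranges of the genes with a reversal were -0.41 to 1.11 for Fabp4, -1.51 to 5.01 for Adipoq, -0.78 to 7.10 for Cfd, -0.10 to 0.58 for Lep, -0.30 to 0.85 for Ucp1, -0.059 to 0.40 for Pparg, -1.12 to 4.89 for Car3, -1.25 to 1.92 for Lpl, -0.16 to 0.37 for Nr1h3, -1.95 to 0.70 for Cebpa, -0.64 to 0.45 for Cebpd, -1.57 to 2.62 for Plin5, -2.59 to 0.65 for Mpzl2, -1.59 to 2.33 for Cox7a1, -0.10 to 1.36 for Fabp5, -0.87 to 0.44 for Fabp2, -0.89 to 1.42 for Fabp3, -0.98 to 1.34 for Plin4, -0.74 to 1.29 for Plin2, -0.088 to 0.33 for Adipor2, -0.36 to 0.98 for Dlk1, -0.23 to 1.44 for Gpihbp1, -0.67 to 0.61 for Meox2, -0.68 to 0.88 for Aqp1, -2.26 to 0.86 for Ctss, -0.66 to 0.14 for Lyz2, -1.17 to 1.94 for Tnnc1, -2.04 to 1.65 for Myh6, -1.04 to 0.85 for Mybpc3, -2.22 to 1.88 for Myh4, -3.16 to 0.40 for Krt19, -2.52 to 0.96 for Msln, -0.68 to 4.43 for Lrrd1, -0.065 to 5.51 for Smok4a, -0.062 to 6.05 for Myl4, -0.11 to 5.02 for Esyt3, -0.092 to 5.98 for AI593442, -0.037 to 5.24 for Olfr112, -0.19 to 4.57 for Ak7, -0.89 to 4.63 for Fgf12, -0.95 to 3.998 for Cntn5 and -0.55 to 4.06 for Phf14.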
